A study of Mus musculus with 6 samples.

Results

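The serpins are a family of proteins named for serine protease inhibition. They were taken from the deposited count table by gene symbol, as every gene whose symbol is Serpin followed by a clade letter from a to i and a digit and whose description does not say pseudogene. This gave 56 of 18180 genes, 24 of them in clade B and 32 in the other clades, of which 22 are in clade A, 3 in clade E, 2 in clade F and 1 each in clades C, D, G, H and I. An inhibitory serpin presents a flexible loop as bait. When a protease cuts the loop, the serpin changes shape and traps the enzyme in a covalent complex, so each inhibitor molecule is used once. Clade B serpins lack a classical signal peptide and act mostly inside cells, and many are made by keratinocytes, where they restrain proteases of cornification and desquamation and protect cells from leaking lysosomal enzymes. Most other clades are secreted, and a few members, such as the collagen chaperone Serpinh1, have lost inhibitory function.

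The data are RNA-seq counts of mouse tail skin, in 2 groups with 3 libraries each. Those labelled cKO came from mice of genotype Mettl3fl/fl;K14creERT2+/-, which carry a tamoxifen-inducible Cre driven by the keratin 14 promoter, active in basal keratinocytes, and their tissue was spontaneously inflamed tail skin. The Ctrl libraries came from normal tails of Mettl3fl/fl;K14creERT2-/- mice, which share the floxed Mettl3 alleles and lack Cre. Per the series' design text, tamoxifen was given on 5 consecutive days and skin was taken 4 weeks later. Genotype and inflamed tissue went together and cannot be told apart. Mettl3 encodes a subunit of the enzyme complex that methylates adenosine in mRNA. Cells in which the Cre was never active, and whose precursors also lacked it, keep Mettl3. Which cells of the tissue lost it was not measured here. The sources used here do not say if each library is its own animal. The p-values therefore reflect only how these 6 libraries scatter, and that scatter may be technical.

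Library totals lay between 35855880 and 37043849 counts. Mettl3 itself had 569, 512 and 540 counts in the libraries labelled cKO, against 440, 389 and 337 counts in the Ctrl libraries, which goes against the label (log2 fold change 0.48, SE 0.11, adjusted p = 0.000102). Whole-gene counts do not separate floxed from other exons. By edgeR's quasi-likelihood test with Benjamini-Hochberg adjustment at 0.05, 61.4% of 15061 tested genes differed. Of all tested genes 30.8% were higher in cKO-labelled tissue and 30.6% lower, and 64.9% had no overlap between groups. Pairs of libraries within a group had a mean chi-square of 3.94 to 4.14 per gene, where sampling noise alone gives 1. Skin markers were present in every library, with basal keratinocyte genes summing to 12916 to 13208 CPM in the libraries labelled cKO and 9519 to 9734 CPM in Ctrl libraries. Of these 7 basal markers 3 rose and 4 fell (median log2 fold change -0.18), and the sum follows Krt14, at 7687 ± 134 CPM in the libraries labelled cKO and 4157 ± 89.5 CPM in Ctrl. All 9 wound-type keratinocyte markers rose, and their summed level was 32337 to 33423 CPM in the libraries labelled cKO against 3671 to 3721 CPM in Ctrl libraries. CPM are counts scaled to a library of 1000000, and FPKM, used below to set genes side by side, are also divided by gene length.

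The 4 Serpinb3 genes lie together and have human counterparts known as squamous cell carcinoma antigens. Serpinb3c and Serpinb3a had the largest rises of the tested serpins, while Serpinb3d and Serpinb3b rose less. The 250 bases before each RefSeq start (build GRCm38.p6) are therefore shown. The deposited counts used another build, mm39. Capitals mark TATAAA on the strand shown or, for Serpinb3d, its reverse complement TTTATA.
Serpinb3a, chr1:107052304-107052553, minus strand: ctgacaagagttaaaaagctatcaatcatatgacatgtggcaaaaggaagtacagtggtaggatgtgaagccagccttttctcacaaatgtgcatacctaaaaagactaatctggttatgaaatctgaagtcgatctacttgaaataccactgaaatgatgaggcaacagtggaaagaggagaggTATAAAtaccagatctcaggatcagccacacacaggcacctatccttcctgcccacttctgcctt
Serpinb3b, chr1:107161115-107161364, minus strand: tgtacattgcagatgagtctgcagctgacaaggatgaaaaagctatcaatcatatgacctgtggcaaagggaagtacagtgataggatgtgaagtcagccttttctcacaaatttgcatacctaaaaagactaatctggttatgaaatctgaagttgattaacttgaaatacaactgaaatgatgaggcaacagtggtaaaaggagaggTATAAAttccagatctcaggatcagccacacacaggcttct
Serpinb3c, chr1:107278372-107278621, minus strand: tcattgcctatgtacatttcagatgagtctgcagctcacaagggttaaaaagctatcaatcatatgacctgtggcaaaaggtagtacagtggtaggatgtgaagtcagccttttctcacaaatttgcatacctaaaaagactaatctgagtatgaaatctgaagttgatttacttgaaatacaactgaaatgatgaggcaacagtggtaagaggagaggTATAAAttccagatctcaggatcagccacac
Serpinb3d, chr1:107083481-107083730, minus strand: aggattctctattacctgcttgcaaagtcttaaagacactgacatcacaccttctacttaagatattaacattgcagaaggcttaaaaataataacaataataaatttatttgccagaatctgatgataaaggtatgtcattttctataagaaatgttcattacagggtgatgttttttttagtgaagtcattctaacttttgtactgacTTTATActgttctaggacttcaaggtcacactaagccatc
Serpinb3b and Serpinb3c matched at 95.4% of aligned bases in this window, Serpinb3a and Serpinb3b at 93.4%, and Serpinb3a and Serpinb3c at 94.0%, while Serpinb3d matched the others at 53.1% to 68.8%. The TATAAA match began 65, 41 and 31 bases before the start in Serpinb3a, Serpinb3b and Serpinb3c, and 40 bases before it in Serpinb3d. The windows of these 3 close copies are therefore largely the same sequence shifted against the annotated start.

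Serpinb3 genes. All 4 rose in the libraries labelled cKO, by factors from 1.84 to 21.2. Human SERPINB3 inhibits cathepsins of the papain type, and its relative SERPINB4 inhibits cathepsin G and mast cell chymase. Serpinb3a had 457, 456 and 451 FPKM in the libraries labelled cKO, against 57.8, 56.4 and 59.1 FPKM in Ctrl libraries. Serpinb3c had 77.3, 79.1 and 76.6 FPKM, against 3.16, 3.61 and 4.02 FPKM in Ctrl. In both genes the groups lay far apart, with all cKO values several times above the highest Ctrl value. The fits gave 7.74-fold for Serpinb3a (log2 fold change 2.95, SE 0.022, adjusted p = 3.36e-83) and 21.2-fold for Serpinb3c (log2 fold change 4.41, SE 0.062, adjusted p = 8.46e-65). Serpinb3d had 253, 247 and 242 FPKM in the libraries labelled cKO and 103, 102 and 108 FPKM in Ctrl libraries. Serpinb3b had 178, 174 and 176 FPKM, against 92.1, 93.6 and 95.9 FPKM in Ctrl. Here too no library of one group reached the other, at 2.33-fold for Serpinb3d (log2 fold change 1.22, SE 0.027) and 1.84-fold for Serpinb3b (log2 fold change 0.88, SE 0.026).

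By FPKM, Serpinb3a stood above the other 3 genes in the libraries labelled cKO, and below Serpinb3d and Serpinb3b in Ctrl libraries. Serpinb3d was above Serpinb3b, and Serpinb3c lowest, in both groups. Serpinb3a stood at 2.58 ± 0.0267 times the FPKM of Serpinb3b in the libraries labelled cKO and at 0.616 ± 0.0126 times in Ctrl libraries (SD, n = 3 each). The ratio of Serpinb3c to Serpinb3b was 0.441 ± 0.0103 in the libraries labelled cKO and 0.0382 ± 0.00385 in Ctrl libraries. The 4 genes summed to 956 ± 9.38 FPKM in the libraries labelled cKO, against 260 ± 6.7 FPKM in Ctrl. Their transcripts in GENCODE M21 were 86.5% to 94.0% identical over aligned bases, and 12.2% to 15.1% of each gene's 50-base stretches also occurred in another gene or pseudogene. How the deposited counting treated such reads is not given in the sources used here, so the split among the 4 genes is less certain than their sum.

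The other abundant clade B genes. Serpinb12, Serpinb2, Serpinb5, Serpinb11, Serpinb7, Serpinb6a and Serpinb8 were the abundant clade B genes beside the Serpinb3 copies, and they differed in direction. Serpinb12, an inhibitor of trypsin-like proteases, was the most abundant serpin of the libraries labelled cKO, at 733, 722 and 722 FPKM against 327, 319 and 322 FPKM in Ctrl libraries. It rose 2.21-fold (log2 fold change 1.15, SE 0.015, adjusted p = 2.07e-66), with a wide gap between the groups. Serpinb2, plasminogen activator inhibitor type 2, an inhibitor of urokinase that is also cross-linked into the cornified envelope, had 315, 318 and 318 FPKM, against 136, 133 and 128 FPKM in Ctrl. It rose 2.36-fold (log2 fold change 1.24, SE 0.020, adjusted p = 1.01e-60), again without overlap. Serpinb11, at 121, 126 and 122 FPKM against 59.8, 60.6 and 52.4 FPKM in Ctrl libraries, rose 2.1-fold (log2 fold change 1.07, SE 0.036, adjusted p = 1.34e-28).

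Serpinb5, or maspin, a non-inhibitory epithelial serpin, had 345, 348 and 352 FPKM in the libraries labelled cKO and 337, 339.9 and 338 FPKM in Ctrl libraries. In CPM of the TMM-scaled libraries the groups overlapped, at 934 ± 9.78 CPM in the libraries labelled cKO and 921 ± 4.19 CPM in Ctrl (log2 fold change 0.02, SE 0.015, adjusted p = 0.230). In 3 alternatives on the deposited FPKM, which carry no TMM scaling, it was called higher, with a log2 difference of 0.04. The FPKM of its neighbour Serpinb12 was 2.08 ± 0.0387 times that of Serpinb5 in the libraries labelled cKO, against 0.954 ± 0.0163 times in Ctrl libraries (SD, n = 3 each).

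Clade B members that fell. Serpinb6e, Serpinb1c, Serpinb13, Serpinb7 and Serpinb8 made up the 5 falls. Serpinb13, also called headpin or hurpin, whose human form inhibits cathepsins K and L, had 7.05, 6.83 and 6.98 FPKM in the libraries labelled cKO, against 32.8, 31.5 and 34.0 FPKM in Ctrl libraries. It fell 4.79-fold (log2 fold change -2.26, SE 0.071, adjusted p = 1.25e-41), although it lies between Serpinb12 and Serpinb3a, which both rose. Serpinb6e had 2.38, 1.76 and 1.86 FPKM, against 24.5, 23.4 and 23.4 FPKM in Ctrl, a fall of 12.1-fold (log2 fold change -3.59, SE 0.10, adjusted p = 5.46e-44). Serpinb1c, a relative of the elastase inhibitor gene Serpinb1a, had 1.01, 0.619 and 0.716 FPKM, against 4.9, 4.72 and 4.86 FPKM in Ctrl libraries, and fell 6.28-fold (log2 fold change -2.65, SE 0.16, adjusted p = 2.84e-25). These 3 genes had no overlap between groups and were at moderate or low levels. Loss of SERPINB7 in humans causes a keratosis of palms and soles, and variants of SERPINB8 cause a peeling skin disorder. Serpinb7 was at 67.7 ± 1.63 FPKM in the libraries labelled cKO and 105 ± 3.33 FPKM in Ctrl libraries, a 1.57-fold fall (log2 fold change -0.65, SE 0.030), and Serpinb8 fell 1.13-fold (log2 fold change -0.17, SE 0.032, adjusted p = 1.91e-06).

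Inhibitors of leukocyte granule proteases. Serpinb1a, which inhibits neutrophil elastase, proteinase 3 and cathepsin G, rose 1.6-fold to 35.9 ± 1.93 FPKM in the libraries labelled cKO, against 22.1 ± 0.523 FPKM in Ctrl. Serpinb6a, an inhibitor of cathepsin G, rose 1.26-fold to 87.9 ± 3.59 FPKM, against 68.9 ± 1.89 FPKM in Ctrl libraries. Part of its reads may be ambiguous, since 20.7% of its 50-base stretches also occur in an overlapping antisense transcript, in Serpinb6c or in Gm8436. Serpinb9, an inhibitor of granzyme B, rose 1.87-fold at a low level, 1.12 ± 0.109 FPKM in the libraries labelled cKO and 0.59 ± 0.11 FPKM in Ctrl (adjusted p = 1.90e-05). Serpinb6d, a low-level gene whose targets are not named here, had 1.67, 1.93 and 2.19 FPKM in the libraries labelled cKO, against 1.01, 0.453 and 0.866 FPKM in Ctrl, and rose 2.44-fold (log2 fold change 1.29, SE 0.30, adjusted p = 0.000165). Serpinb10, or bomapin, known from blood cells, rose 1.18-fold to 8.42 ± 0.491 FPKM, against 7.02 ± 0.0373 FPKM in Ctrl. Of the neutrophil marker list, 8 of 12 genes were tested, 7 of them higher and 1 lower (median log2 fold change 2.76). Their summed level, 86.2 to 88.5 CPM in the libraries labelled cKO and 65.5 to 70.7 CPM in Ctrl, is dominated by the 1 that fell, Il1r2, at 35.0 ± 0.379 CPM in the libraries labelled cKO and 56.7 ± 1.23 CPM in Ctrl. Of 10 macrophage and dendritic markers, 9 rose. Among all tested genes 30.8% were higher. The granule protease gene Elane had 1 count over the libraries labelled cKO and 4 over Ctrl, and granule protein was not measured. The part of such cells in these differences was not tested.

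Of 24 clade B genes, 21 passed the low-count filter and 17 passed the test, 12 higher and 5 lower. That is 81.0% called, against 61.4% of all tested genes, and 57.1% higher, against 30.8%. At a difference of at least 2-fold there were 7 rises, against 5.98% of all tested genes, and 3 falls, against 4.79%. The median log2 fold change of the tested clade B genes was 0.68, against 0.00 over all tested genes. Serpinb5, Serpinb6b, Serpinb6c and Serpinb1b did not pass the test, and Serpinb6b, at 0.626 ± 0.135 FPKM in the libraries labelled cKO and 0.453 ± 0.0428 FPKM in Ctrl, had an adjusted p of 0.289. Serpinb6c and Serpinb1b had log2 fold changes of 0.07 and 0.71, each with an adjusted p of 0.369. Serpinb9b, Serpinb9e and Serpinb9g were not tested.

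**Figure D1:**
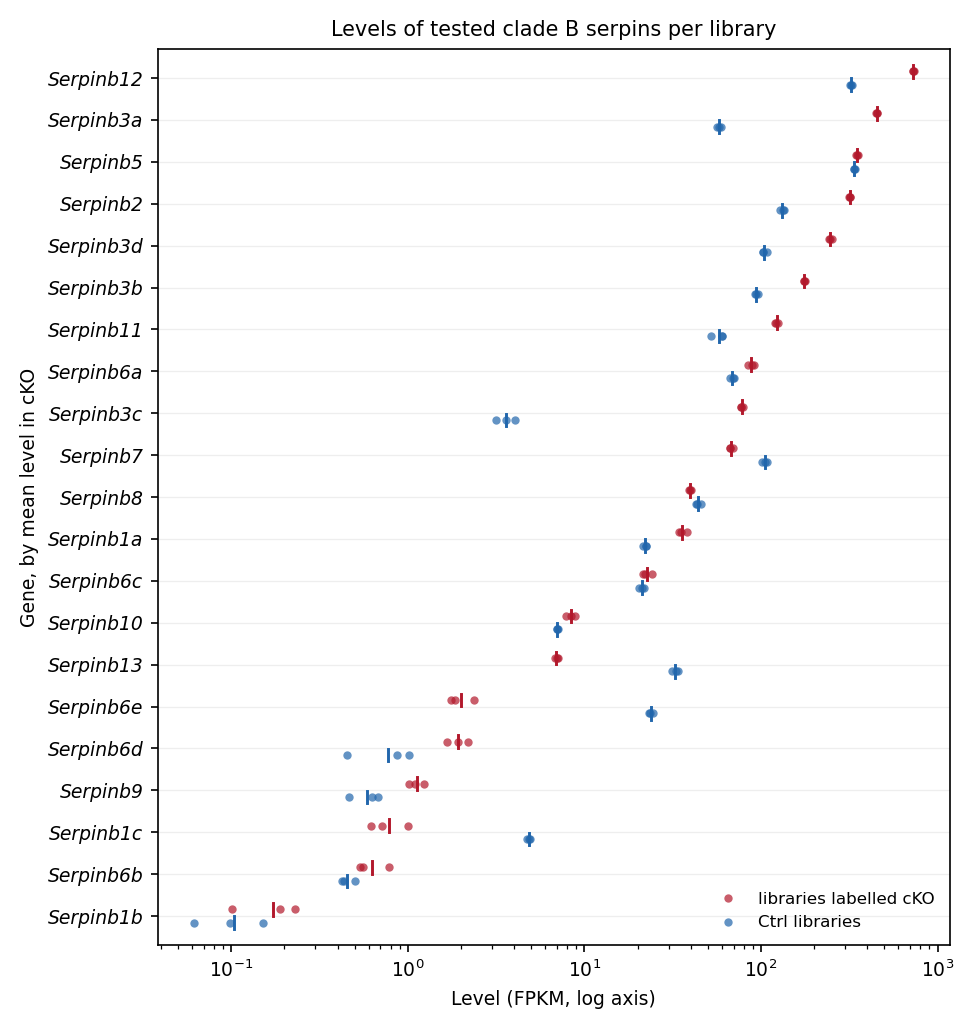
Level in FPKM, on a log axis, of the 21 tested clade B serpins in each library, with points for libraries and short bars for group means (n = 3 each). Serpinb3c and Serpinb3a show the widest gaps with the libraries labelled cKO above Ctrl, Serpinb6e the widest with them below, and the points of Serpinb5 nearly coincide.

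The order of levels. In the libraries labelled cKO the clade B genes ran Serpinb12, Serpinb3a, Serpinb5, Serpinb2, Serpinb3d, Serpinb3b and Serpinb11, and in Ctrl libraries Serpinb5, Serpinb12, Serpinb2, Serpinb7, Serpinb3d, Serpinb3b and Serpinb6a, by mean FPKM. Each gene's library values lay apart from those of the next in these orders, except Serpinb7 and Serpinb3d in Ctrl libraries, whose values overlapped. Serpinb3a made up 16.6% of all clade B FPKM in the libraries labelled cKO and 4.01% in Ctrl libraries. Serpinb5 made up 12.7% in the libraries labelled cKO and 23.5% in Ctrl.

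Clade B as a whole summed to 2746 ± 5.05 FPKM in the libraries labelled cKO and 1442 ± 8.95 FPKM in Ctrl libraries, while the other clades summed to 876 ± 8.7 FPKM in the libraries labelled cKO and 1486 ± 5.47 FPKM in Ctrl. The ratio of clade B to the other clades was 3.14 ± 0.0366 in the libraries labelled cKO, against 0.970 ± 0.0081 in Ctrl libraries. In raw counts, clade B took 0.514% of each library labelled cKO and 0.294% of each Ctrl library on average. The other clades took 0.193% of each library labelled cKO and 0.321% of each Ctrl library. In tissue RNA, fewer cells of a type and less RNA per cell cannot be told apart.

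**Figure D2:**
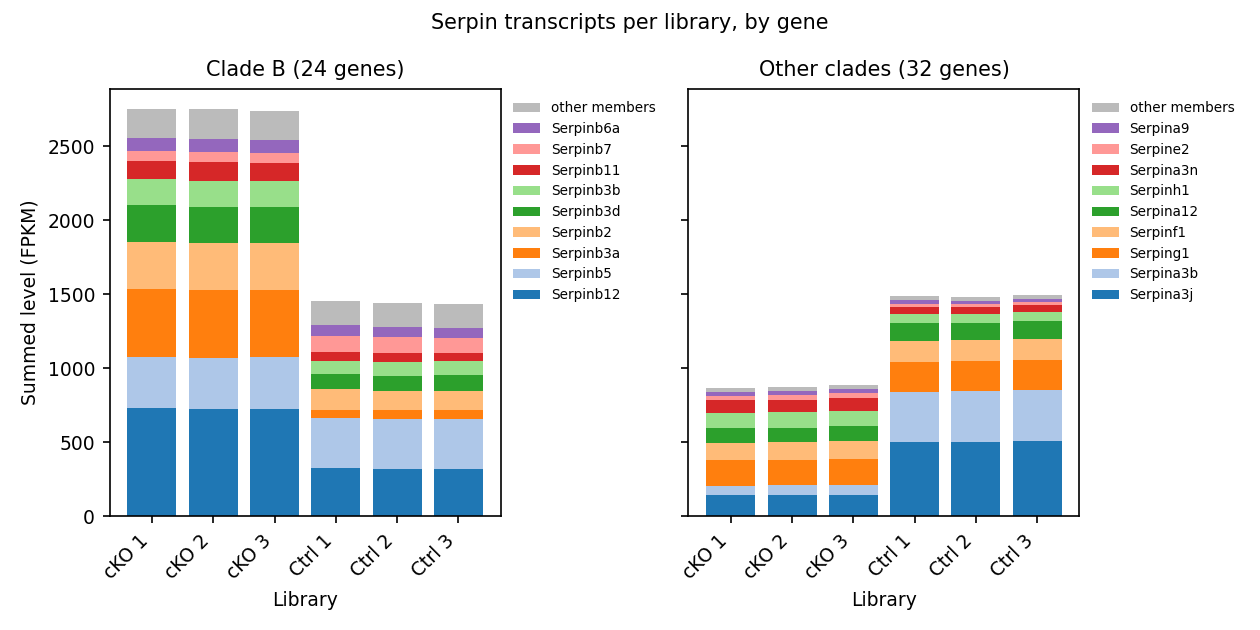
Summed FPKM per library, stacked by gene, for the 24 clade B genes and the 32 genes of other clades, with the 9 most abundant genes of each shown by colour and the rest in grey. The clade B bars are higher in the 3 libraries labelled cKO, where the Serpinb3a segment is wide, and the bars of the other clades are lower there, with shorter Serpina3j and Serpina3b segments.

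The antichymotrypsin-like Serpina3 cluster. Rodents carry many copies of the gene that humans have once as SERPINA3, an acute-phase inhibitor of chymotrypsin-like proteases. The 2 abundant copies of Ctrl tail skin fell, and the acute-phase copy Serpina3n rose. Serpina3j had 142, 144 and 144 FPKM in the libraries labelled cKO, against 503, 500.5 and 508 FPKM in Ctrl libraries, where it was the most abundant serpin of any clade. It fell 3.57-fold (log2 fold change -1.83, SE 0.017, adjusted p = 3.51e-77). Serpina3b had 64.0, 64.5 and 67.8 FPKM, against 337, 343 and 343 FPKM in Ctrl libraries, and fell 5.3-fold (log2 fold change -2.41, SE 0.022, adjusted p = 9.68e-78). Together the pair held 209 ± 2.68 FPKM in the libraries labelled cKO and 845 ± 5.64 FPKM in Ctrl, a difference larger than that of the whole sum outside clade B. Markers of skin appendages fell beside them, 11 of 12 hair genes and 9 of 10 sebocyte genes, against 30.6% of all tested genes. The sebocyte list summed to 2650 to 2658 CPM in the libraries labelled cKO and 6148 to 6196 CPM in Ctrl. The part of skin appendages in the falls was not tested.

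Serpina3n, which inhibits granzyme B and leukocyte elastase, rose 1.83-fold to 84.4 ± 1.44 FPKM in the libraries labelled cKO, against 45.4 ± 1.47 FPKM in Ctrl (log2 fold change 0.87, SE 0.032, adjusted p = 1.71e-37). Its ratio to Serpina3j was 0.588 ± 0.00858 in the libraries labelled cKO and 0.0900 ± 0.00328 in Ctrl libraries. Serpina3g, an intracellular member that inhibits cathepsin B and is known from activated T cells and macrophages, had 2.18, 2.29 and 1.47 FPKM, against 0.679, 0.943 and 0.34 FPKM in Ctrl libraries. It rose 2.97-fold (log2 fold change 1.57, SE 0.28, adjusted p = 1.02e-06), with the groups apart but unevenly spread. Serpina3m rose 1.86-fold and Serpina3c fell 1.51-fold. Serpina3a, with 10, 5 and 13 counts in the libraries labelled cKO and 49, 50 and 62 counts in Ctrl, fell 5.66-fold (log2 fold change -2.50, SE 0.50, adjusted p = 1.26e-05), and only through its Ctrl counts did it reach the test. Serpina3f reached it only through the libraries labelled cKO. Serpina3f and Serpina3i did not pass (adjusted p of 0.104 and 0.0936). Without Ctrl replicate 1 Serpina3f passed at a log2 fold change of 2.28 (adjusted p = 0.0342), and without Ctrl replicate 2 Serpina3i passed at -0.71 (adjusted p = 0.0325). Between 0.0598% and 19.1% of the 50-base stretches of the tested Serpina3 genes occurred in another transcript, with Serpina3b at 2.92% and Serpina3j at 3.13%.

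The remaining clade A genes. Serpina12, or vaspin, an inhibitor of kallikrein 7 made by keratinocytes and fat, had 97.5, 94.8 and 97.9 FPKM in the libraries labelled cKO, against 121, 117 and 119 FPKM in Ctrl libraries. The groups did not overlap, and it fell 1.25-fold (log2 fold change -0.32, SE 0.020, adjusted p = 9.42e-24). Serpina9, known in humans from germinal centre B cells, rose 1.32-fold to 27.3 ± 2.28 FPKM, against 20.3 ± 1.61 FPKM in Ctrl. Of the alpha-1-antitrypsin copies, which the liver secretes as the main plasma inhibitor of elastase, Serpina1e alone was tested. It had 0.568, 0.728 and 0.867 FPKM in the libraries labelled cKO, against 2.32, 2.28 and 2.66 FPKM in Ctrl, and fell 3.4-fold (log2 fold change -1.76, SE 0.29, adjusted p = 1.42e-07). As 35.6% of its 50-base stretches occur in other Serpina1 copies, the reads cannot be tied to it alone. Serpina6, the carrier of corticosteroids in plasma, had 4, 1 and 12 counts in the libraries labelled cKO and none in Ctrl, too few to pass the filter. Serpina11 was tested and did not pass (log2 fold change 0.86, adjusted p = 0.204).

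**Figure D3:**
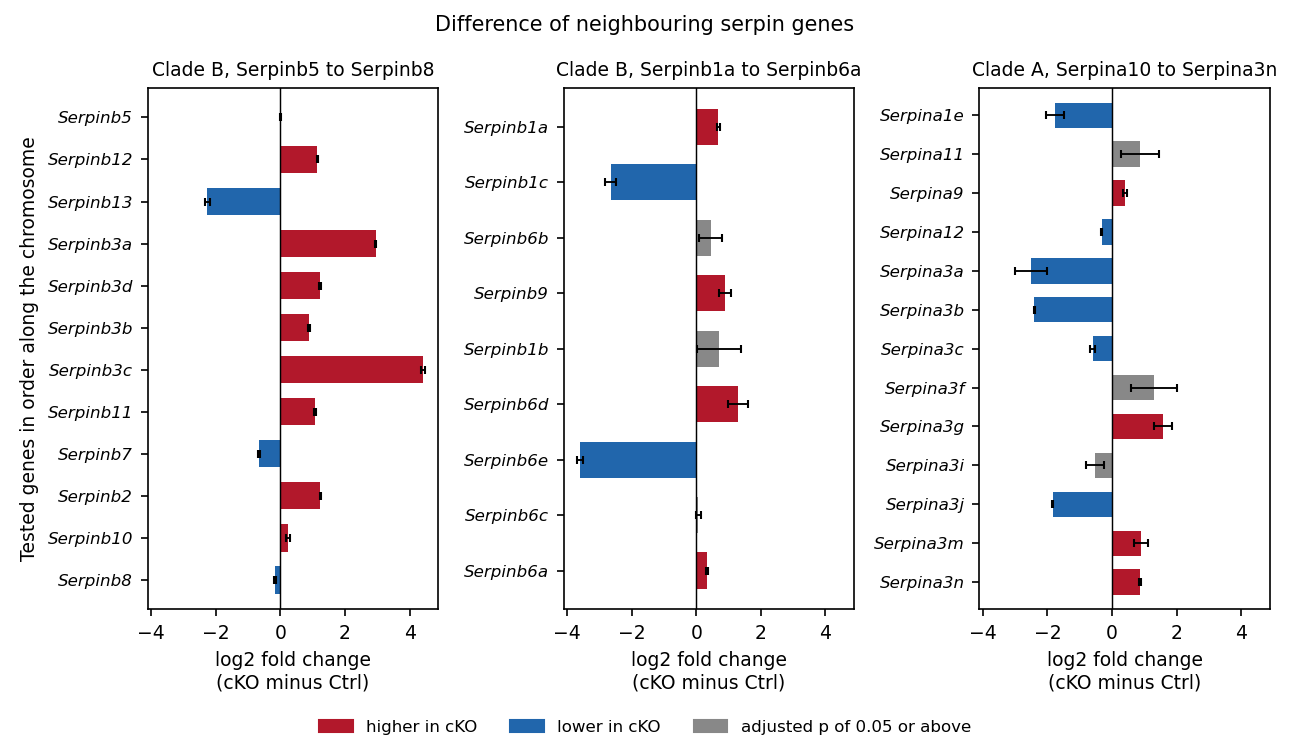
Log2 fold change (cKO minus Ctrl) with standard errors for tested serpins in the 3 groups of neighbouring genes, from top to bottom in their order along the chromosome in RefSeq's GRCm38.p6 table. Rises and falls occur within each group, as with Serpinb13 at -2.26 beside Serpinb3a at 2.95, and Serpina3j at -1.83 above Serpina3m at 0.90.

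Rises and falls were mixed within each group of neighbours. The clade B group from Serpinb5 to Serpinb8 on chromosome 1 had 12 tested members, 8 higher and 3 lower (91.7% called, against 61.4% of all tested genes, median log2 fold change 0.98). The clade B group from Serpinb1a to Serpinb6a on chromosome 13 had 9 of 12 members tested, 4 higher and 2 lower (66.7% called, near the share of all tested genes, median 0.44). In the clade A group from Serpina10 to Serpina3n on chromosome 12, 13 of 22 members were tested, 4 higher and 6 lower (76.9% called, median -0.32). These counts are descriptions and were not tested against each other.

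Secreted serpins of the plasma and matrix type. Clades C to I held genes of the connective tissue and of clotting control, and their differences were smaller than those of the epithelial genes. Serping1, the C1 inhibitor, which blocks complement C1 and plasma kallikrein, was the most abundant serpin outside clade B in the libraries labelled cKO, at 174, 171 and 176 FPKM against 201, 204 and 204 FPKM in Ctrl libraries. It fell 1.19-fold (log2 fold change -0.25, SE 0.021, adjusted p = 2.55e-17). Serpinf1, pigment epithelium-derived factor, a non-inhibitory antiangiogenic protein of fibroblasts, had 115, 121 and 122 FPKM, against 143, 141 and 145 FPKM in Ctrl libraries. It fell 1.22-fold (log2 fold change -0.28, SE 0.027, adjusted p = 4.33e-15). In both genes every library labelled cKO was below every Ctrl library.

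Serpinh1, the Hsp47 chaperone of procollagen in the endoplasmic reticulum, had 108, 109 and 107 FPKM in the libraries labelled cKO, against 62.5, 62.6 and 61.4 FPKM in Ctrl. It rose 1.7-fold (log2 fold change 0.77, SE 0.026, adjusted p = 1.17e-39). Fibroblast markers rose in 8 of 9 cases, against 30.8% of all tested genes. They summed to 16540 to 16589 CPM in the libraries labelled cKO and 11455 to 11560 CPM in Ctrl. Most of this sum is Col1a1, Col1a2 and Col3a1, which are also in the collagen list that follows, so the 2 lists are not separate evidence. Col3a1 alone was at 4634 ± 13.3 CPM in the libraries labelled cKO and 2039 ± 24.1 CPM in Ctrl. The marker that fell was Dcn, at 1967 ± 9.55 CPM in the libraries labelled cKO and 2495 ± 18.6 CPM in Ctrl. The part of fibroblasts was not tested. Of 10 collagen genes listed as its clients, 9 rose and none fell, among them Col5a1 (360 ± 6.11 CPM in the libraries labelled cKO and 156 ± 6.9 CPM in Ctrl), Col5a2 (log2 fold change 1.19) and Col3a1 (log2 fold change 1.18). Serpine2, protease nexin 1, a cell-surface inhibitor of thrombin and plasminogen activators, rose 1.37-fold to 31.4 ± 0.0699 FPKM, against 22.6 ± 0.227 FPKM in Ctrl. Serpini1, or neuroserpin, an inhibitor of tissue plasminogen activator, rose 1.66-fold to 2.79 ± 0.42 FPKM, against 1.65 ± 0.153 FPKM in Ctrl. Serpine2, Serpini1 and, in clade B, Serpinb2 thus all rose.

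Outside clade B, 19 of 32 genes passed the low-count filter, and 8 rose and 8 fell. That is 84.2% called, against 61.4% of all tested genes, with 42.1% higher and 42.1% lower, and a median log2 fold change of 0.40. These shares include Serpina3a, a fall that reached the test only through its Ctrl counts. The 16 untested serpins, 13 of them outside clade B, had 1 to 37 counts over all 6 libraries. They hold most of the liver's plasma serpins, such as Serpinc1, antithrombin, with 2, 2 and 0 counts in the libraries labelled cKO and 9, 5 and 3 counts in Ctrl, Serpind1, heparin cofactor II, and Serpinf2, alpha-2-antiplasmin. The count filter left all 16 out of the test. Without it Serpina6 was called higher (log2 fold change 5.54, adjusted p = 0.00954), a fitted value that depends on the prior count since its Ctrl libraries had none. The limit that a count of 0 allows, 3 counts, is 0.0810 to 0.0837 CPM per library. Of 5 tested liver and plasma protein markers, 2 rose and 2 fell, and the list summed to 193 to 196 CPM in the libraries labelled cKO and 138 to 144 CPM in Ctrl. Little of this sum is Alb, which fell (1.32 ± 0.529 CPM in the libraries labelled cKO and 3.52 ± 0.998 CPM in Ctrl). The same holds for Ahsg, which rose (0.772 ± 0.128 CPM in the libraries labelled cKO and 0.319 ± 0.243 CPM in Ctrl).

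**Figure D4:**
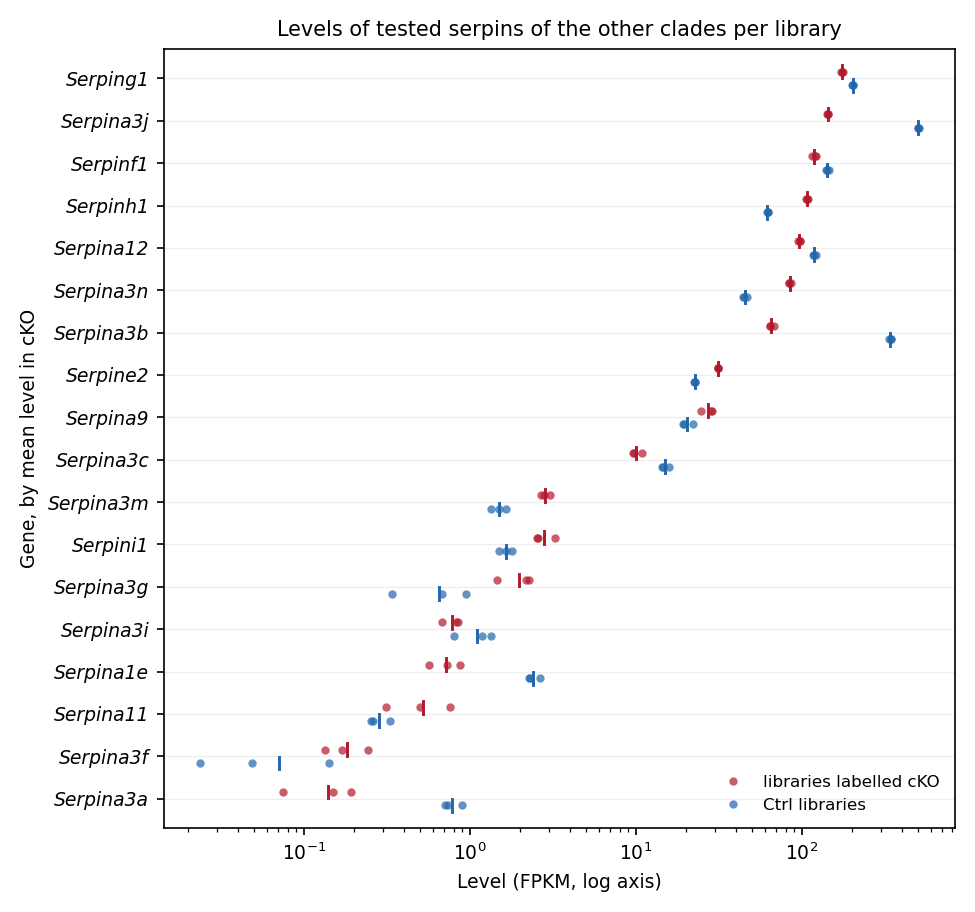
Level in FPKM, on a log axis, of 18 of the 19 tested serpins outside clade B in each library, with points for libraries and short bars for group means (n = 3 each). Serpina3j and Serpina3b stand at the top in Ctrl and fall well below it in the libraries labelled cKO, while Serpinh1 and Serpina3n lie above Ctrl.

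Target proteases and partners. Lists of proteases that serpins are known to restrain, and of other partners, are set beside the 61.4% of all tested genes that were called and the 30.8% that were higher. Of 19 epidermal kallikreins and membrane serine proteases, 15 rose and 2 fell (78.9% higher, median log2 fold change 1.09). The 3 with the largest differences were Tmprss11b (49.7 ± 0.72 CPM in the libraries labelled cKO and 1.18 ± 0.134 CPM in Ctrl), Klk13 (196 ± 2.71 CPM in the libraries labelled cKO and 17.0 ± 0.629 CPM in Ctrl) and Klk12 (21.3 ± 0.708 CPM in the libraries labelled cKO and 2.64 ± 0.358 CPM in Ctrl). Klk7, the desquamation protease inhibited by vaspin and chosen after its values were seen, had 1557 ± 6.87 CPM in the libraries labelled cKO and 1198 ± 2.36 CPM in Ctrl (log2 fold change 0.38), the opposite direction to Serpina12. Of 14 papain-type cathepsins and caspases, 13 rose and 1 fell (92.9% higher, median 0.63), with Casp14, the caspase of cornification, at a log2 fold change of 1.92, Ctsc, which activates granule proteases, at 1.56, and Ctsf at -0.88. Ctsl, a target of human SERPINB3 and SERPINB13 also chosen after its values were seen, rose by 0.15 on the log2 scale, less than Serpinb3a rose. Ctsk, named above as a target of human SERPINB13 and likewise chosen after its values were seen, rose by 0.56.

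Leukocyte and mast cell protease genes summed to 204 to 216 CPM in the libraries labelled cKO and 177 to 188 CPM in Ctrl. Only their RNA was measured. Of 15 in the table, 9 were tested, 3 rose and none fell (33.3% higher, near the share of all genes, median -0.02), with Gzmb at 1.05 ± 0.284 CPM in the libraries labelled cKO and 0.129 ± 0.0708 CPM in Ctrl, and the mast cell genes Tpsb2 and Mcpt4 at log2 fold changes of 0.42 and 0.28. Of 12 tested genes of plasminogen activation and clotting, 6 rose and 1 fell (58.3% called, against 61.4% of all tested genes, median 0.29). That is 50% higher, against 30.8%, and 5 rose at least 2-fold, against 5.98% of all tested genes. Tfpi2, an inhibitor of plasmin and of tissue factor with factor VIIa, had a log2 fold change of 3.21, and Plaur, the urokinase receptor, had 1.13. F10, clotting factor X, was at 1.35 ± 0.189 CPM in the libraries labelled cKO and 0.475 ± 0.204 CPM in Ctrl. Plau, urokinase itself, named as the target of Serpinb2 after its values were seen, was at 41.7 ± 1.34 CPM in the libraries labelled cKO and 39.7 ± 1.55 CPM in Ctrl (adjusted p = 0.296).

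Of 8 tested genes for C1 and related proteases, 6 rose and none fell (median 0.39), with C1s1, C1ra and C1qb at log2 fold changes of 0.95, 0.60 and 0.53, while their inhibitor Serping1 fell. Among receptors that clear serpin-protease complexes, 3 of 4 tested rose, Lrp8 and Lrp1 among them. Lrp8 was at 12.6 ± 0.44 CPM in the libraries labelled cKO and 4.77 ± 0.408 CPM in Ctrl, and Lrp1 had a log2 fold change of 0.26. In the list of hormone and lipid partners, 1 of 8 rose and 5 fell (median -0.49), with the corticosteroid receptor genes Nr3c2 and Nr3c1 and the lipase gene Pnpla2 at -1.57, -0.85 and -0.79.

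Promoter letters. RefSeq's GRCm38.p6 table held the 250 bases before the start for 47 of the 56 genes. TATAAA on either strand was present in 8 of 22 clade B genes (36.4%) and 4 of 25 others, against 14.3% of 27025 genes in the table. The 8 include all 4 Serpinb3 genes, of which Serpinb3a, Serpinb3b and Serpinb3c are near copies in this window, so they are not 8 independent genes. The AP-1 letters TGANTCA were present in 7 of 22 clade B genes (31.8%) and 4 of 25 others, the near-identical copies Serpina1a to Serpina1d, against 7.82% of all genes. The 7 were Serpinb10, Serpinb11, Serpinb12, Serpinb2, Serpinb5, Serpinb7 and Serpinb8, of which 4 rose, 2 fell and Serpinb5 did not pass the test. No Serpinb3 window held TGANTCA. The STAT letters TTCNNNGAA were present in 2 of 22 and 5 of 25 genes, against 8.13% of all. These are letter matches and say nothing of binding.

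The direction of each of the 22 serpins selected by size of difference or level held under all 17 alternatives that were run. With an assumed biological coefficient of variation of 20% between animals, 24 of the 33 called serpins remained called, and Serpina12, Serpina3c, Serpina9, Serpinb10, Serpinb6a, Serpinb8, Serpine2, Serpinf1 and Serping1 did not. Serpina3f, not called in the main test, was called higher at 20% by the likelihood-ratio test of that setting (adjusted p = 0.0186). At 40%, 10 remained, namely Serpinb3a, Serpinb3c, Serpinb6e, Serpinb13, Serpinb1c, Serpina3a, Serpina3b, Serpina3g, Serpina3j and Serpina1e. Among them Serpina3a had reached the test only through its Ctrl counts, the group where it is high.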

How the data were processed

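RNA from mouse tail skin was isolated with TRIzol, and the VAHTS Universal V5 kit was used for library preparation, per the labels' protocols. The authors deposited raw counts per gene and FPKM for 18180 genes in 6 libraries. The submitters' processing notes name fastp, HISAT2, HTSeq and mm39. Not given in the sources used here are versions, annotation, strand setting and the handling of multi-mapping reads. Each deposited FPKM followed from its count, the library's column total and a single whole-number gene length (relative tolerance 1e-06).

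Differences were tested on the counts in R 4.3.3 with edgeR 4.0.16 (filterByExpr with a minimum count of 10 and total of 15, TMM, robust quasi-likelihood fit, group as the only term, two-sided, Benjamini-Hochberg adjustment over 15061 genes, called under 0.05). Standard errors are log2 fold changes divided by the root of F. Values after ± are SD over n = 3. DESeq2 1.42.0 and limma 3.58.1 served for alternatives. The steps were tested on simulated data. FPKM set levels of genes side by side. Shared 50-base stretches were counted on the longest GENCODE M21 transcript against all transcripts on both strands. Protein sequences were not used here, and some selected genes are not reported here.

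Serpins were given in full if called with a difference of at least 2-fold and 1 CPM in the higher group, or if among the 6 highest by FPKM in clade B or outside it. From each partner list up to 3 called genes of largest difference with at least 1 CPM were named. Members, lists, alternatives and rules were chosen with earlier results of these data known. Motif letters were chosen after the data were seen.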

Additional observations from a re-analysis of the deposited data

How the results depend on the processing

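The number of called genes was 9244 in all, 17 in clade B (12 higher, 5 lower) and 16 outside it (8 higher, 8 lower). DESeq2, limma-voom, other scaling factors, other count filters and limma on log2(FPKM + 1) or log2(FPKM + 0.1) kept each of these within 1.5 times. With the replicate block the counts were 9212, 17 and 16, and the block changed no serpin call. The labels do not say if same-numbered libraries belong together. Their deviations from the group means correlated at -0.0154, -0.0155 and -0.0577, and not every library correlated best with its own number. With 3 libraries per group, such small values cannot settle whether they were paired. Leaving out each library in turn gave 8694 to 8847 genes, 17 in clade B and 16 to 17 outside it. An assumed coefficient of variation of 20% gave 3361 genes, with 4 lower outside clade B. At 40% the counts were 774 genes, 5 in clade B (2 higher, 3 lower) and 5 outside it (1 higher, 4 lower). These settings give every gene the same assumed spread and use a likelihood-ratio test in place of the quasi-likelihood test. For some low-count serpins the 20% setting was less strict than the main test. Its adjusted p was 7.05e-11 for Serpina3a and 2.82e-07 for Serpina3g, against 1.26e-05 and 1.02e-06 in the main test. It also called Serpina3f higher (adjusted p = 0.0186). Of 374 values for the 22 selected serpins, 357 stayed on the same side of the threshold and none changed direction. The other 17 were Serpinb5, called in 3 FPKM alternatives, and 14 calls lost at an assumed spread of 20% or 40%. Without a count filter Serpina6 was called higher (adjusted p = 0.00954). Members under about 10 counts per library are limited by depth.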
